A study of Arabidopsis with 6 samples.

Results

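The comparison described here set RNAi-21 seedlings after 2 h of light against RNAi-21 seedlings kept in the dark, with 1 library on each side out of 6 in the series. Genes were joined by locus identifier, and 17973 of the 19763 listed genes, those with a value of at least 1 in either library, were compared. The series covers Arabidopsis of wild-type (WT) genotype and RNAi-21, a line carrying RNA interference against PCD8, which is known from Arabidopsis as a chloroplast protein tied to tetrapyrrole metabolism. Every group spent 4 days in darkness at a common temperature on agar medium, and was taken at 0 h or after 0.5 h or 2 h in the light. The tissue is labelled leaf, no age beyond the dark period is given, and the promoter behind the RNAi construct and the number of plants per library are not stated in the labels.

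Seedlings raised in darkness grow a long hypocotyl with a closed apical hook, and their plastids hold the light-dependent enzyme protochlorophyllide oxidoreductase with its substrate. When light reaches phytochromes and cryptochromes, PIF transcription factors that maintain the dark programme are removed and HY5, which the COP1 ubiquitin ligase keeps low in the dark, accumulates. Chlorophyll, light-harvesting proteins, flavonoid sunscreens and protection against photo-oxidation are then built up while cell elongation slows, a change known as de-etiolation.

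Values were read as FPKM (fragments per kilobase of transcript, scaled to library size), a level scaled for transcript length, and differences are given as log2(FPKM + 1) at 2 h minus that at 0 h. A difference of at least 1 in size is called 2-fold, and the added 1 makes the true ratio of weakly expressed genes larger than the difference shows. Since 1 library stands on each side, no difference has a replicate error, a test or a p-value, and "higher" and "lower" describe these 2 libraries only. Elapsed time was not separated from light, because no dark library was used that was kept as long as the 2 h seedlings. In whole tissue, fewer cells of a type and less RNA per cell cannot be told apart.

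The FPKM summed to 792994 at 0 h and 891009 at 2 h, and the read depth is unknown. The median difference over all genes compared was -0.04, and it was -0.19 when the library totals were made equal. That scaling lowers the differences of abundant genes by more than those of weakly expressed genes. Photosystem and electron transport genes, for example, had a median of 1.31 as deposited and 1.14 with totals equalised. Of the marker lists for tissues, 24 leaf and shoot apex genes were compared and had a median difference of -0.01, while none of the 4 listed pollen and flower genes reached an FPKM of 1. The 17 root markers compared had summed FPKM of 9246 at 0 h and 9070 at 2 h. The root aquaporin TIP2;3 gave 2391 and 1638 of these sums, and most of each came from other members. Root markers had a median difference of -0.45, with 15 of 17 below 0, and their part in the results was not tested. PCD8 was not analysed here, because no locus could be matched to that name, so the RNAi label has no check from its target.

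In the light library 1632 genes were higher by the 2-fold limit, which is 9.08% of those compared, and 805 were lower by it, which is 4.48%. Together these were 2437 genes (13.6%), of which 67.0% were higher. With totals equalised that share was 55.4%, from 1372 higher and 1105 lower genes. On the values as deposited the counts were lopsided in size as well, with 511 genes higher by 4-fold or more (2.84%) and 132 lower by as much (0.734%). The 4-fold counts were not computed with totals equalised. With 1 added to each value, weakly expressed genes also have little room to be 4-fold lower. Most genes moved little, and the middle of the distribution lay from -0.35 at the 25th percentile to 0.32 at the 75th percentile. Close to the limit, 186 genes were less than 0.1 past it on the upper side and 224 less than 0.1 short of it, against 158 and 200 on the lower side.

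The higher genes held 5.44% of the summed FPKM in the dark and 17.5% after 2 h of light. The lower genes went from 7.63% to 2.301% of it. The direction of both shifts is built in, because the genes were chosen on the difference between these same 2 libraries. The share of higher genes declined with the level in the dark, from 44.1% of the 619 genes below an FPKM of 1 to 4.81% of the 187 genes at 500 or more. A gene under 1 in the dark was compared only if it reached 1 in the light, so that first share is raised by the filter. Lower genes made up 2.87% of those starting at 1 to 5 and 9.63% of those starting at 500 or more, and with 1 added to each value a gene near 1 in the dark has little room to pass the lower limit. In 37 genes the FPKM went from below 1 in the dark to 10 or more in the light, and in 7 genes the reverse was seen.

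**Figure D1:**
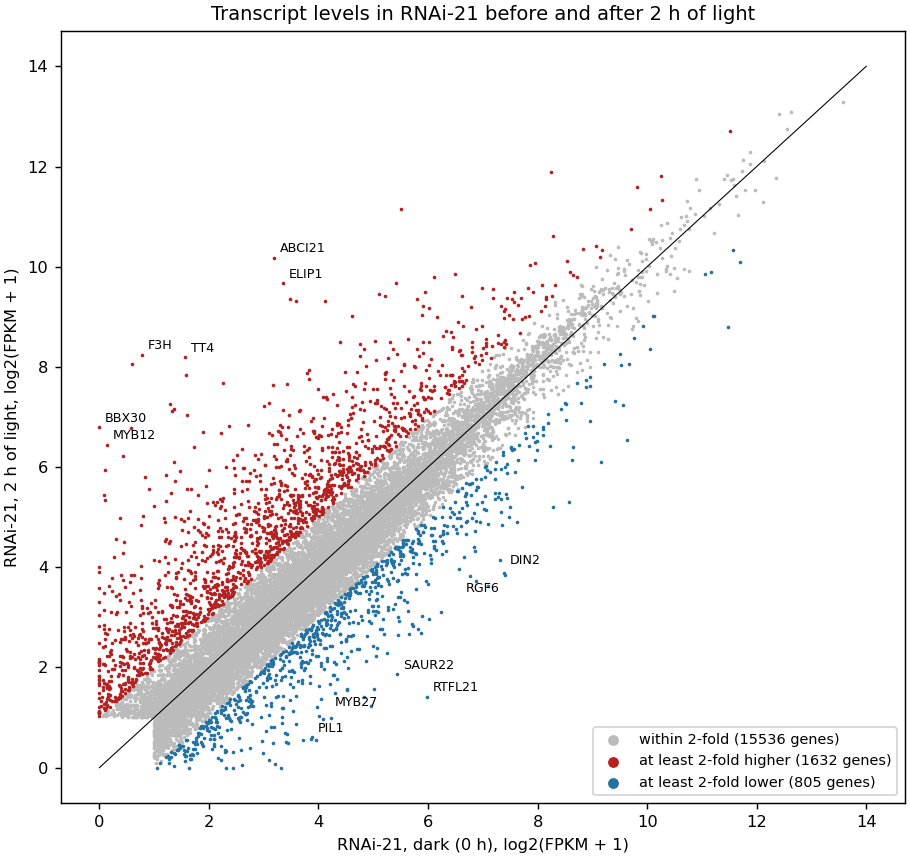
Each point is 1 of the 17973 genes compared, with its level in dark RNAi-21 on the horizontal axis and its level after 2 h of light on the vertical axis, both in log2(FPKM + 1), and the line marks equal levels. The 1632 higher genes (red) reach farther from the line than the 805 lower genes (blue), both at the 2-fold limit, and the 6 named genes at each end have the largest differences among genes that carry a symbol and reach an FPKM of 5.

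Enzymes and regulators of flavonoid synthesis took many of the top places. F3H (AT3G51240), flavanone 3-hydroxylase, had an FPKM of 0.721 in the dark, 17.5 after 0.5 h and 302 after 2 h, a difference of 7.46. TT4 (AT5G13930), chalcone synthase at the entry to the pathway, stood at 1.97 and 2.36 at the first 2 times and at 292 after 2 h. The flavonol synthase FLS1 (AT5G08640) was similar, at 0.491 and 0.698 and then 109. F3H was thus well above its dark level at 0.5 h, whereas TT4 and FLS1 were still close to theirs. UGT78D2 (AT5G17050), a flavonoid 3-O-glucosyltransferase, had values of 1.51, 18.17 and 138, and shared the early increase of F3H. CHIL (AT5G05270), a chalcone isomerase-like protein that promotes flavonoid output, had 2.04, 3.89 and 131. Chalcone isomerase itself, TT5 (AT3G55120), had 2.18, 4.00 and 46.1.

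Of 14 flavonoid synthesis genes compared, 13 (92.9%) were at least 2-fold higher and none was lower, with a median difference of 2.53. That median was 4.004 with a pseudocount of 0.1, 3.55 with a filter of 5 FPKM and 1.85 with no filter. The activator MYB12 (AT2G47460), which drives the flavonol genes, was at 0.10, 0.720 and 86.2, a difference of 6.31. PAP1 (AT1G56650), an activator of anthocyanin synthesis, stood at lower levels, with 0.483, 0.675 and 8.42. MYB4 (AT4G38620), a repressor of phenylpropanoid genes, was at 23.64, 36.2 and 65.2, and the small MYB repressor CPC (AT2G46410) at 4.11, 10.6 and 23.4. Activators and repressors were therefore both among the higher regulators, which numbered 4 of 10 compared, at a list median of 0.87. This list median was 1.59 with a pseudocount of 0.1 and 1.43 with a filter of 5 FPKM. It was 0.78 with no filter and 0.81 with totals equalised.

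Regulators of light signalling were the other group near the top, and they were high already at 0.5 h. BBX30 (AT4G15248), a small B-box protein, was listed at 0 in the dark and had an FPKM of 77.3 after 0.5 h and 109.7 after 2 h. Its relative BBX31 (AT3G21890) had 0.300, 13.0 and 30.5, and BBX32 (AT3G21150) had 0.0735, 19.4 and 60.8. All of these had most of their log2 difference by 0.5 h. BBX24 (AT1G06040) and BBX25 (AT2G31380), B-box proteins that restrain HY5 activity, had 41.4, 278 and 820 and 0.779, 11.2 and 55.2. RUP2 (AT5G23730), a repressor of the UV-B photoreceptor UVR8, was slower, at 2.71, 9.31 and 104. In the list, 17 of 29 were at least 2-fold higher and 5 lower, with a median of 1.68.

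Photoreceptors and PIF-related genes had no common direction, with 5 higher, 5 lower and a median of -0.10 over 18 genes. PHYA (AT1G09570), the phytochrome of dark-grown seedlings, went from 172 through 139 to 66.1. PHOT1 (AT3G45780) and PHOT2 (AT5G58140), the phototropin blue-light receptors, went opposite ways, from 55.1 to 22.6 and from 6.42 to 32.5. PIL1 (AT2G46970), a bHLH protein known from shade responses, had 13.7, 0.986 and 0.526, so most of its loss was in place at 0.5 h. PAR1 (AT2G42870), an atypical bHLH protein of shade avoidance, was at 51.1, 7.07 and 6.32, and PAR2 (AT3G58850) at 76.6, 50.1 and 25.6. The shade-responsive homeodomain gene HB-2 (AT4G16780) belonged to the same end, with 57.5, 12.4 and 5.48.

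Of 19 clock genes 9 were at least 2-fold higher and none lower, with a median of 0.83. PRR9 (AT2G46790), a pseudo-response regulator, had an FPKM of 0.691, 16.0 and 27.7. CCA1 (AT2G46830), a morning MYB factor, had 8.91, 48.4 and 63.6, and LNK1 (AT5G64170), a co-activator of the same loop, had 3.95, 29.6 and 62.9. ELF4 (AT2G40080) of the evening complex was also higher, at 14.9, 77.9 and 187.

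**Figure D2:**
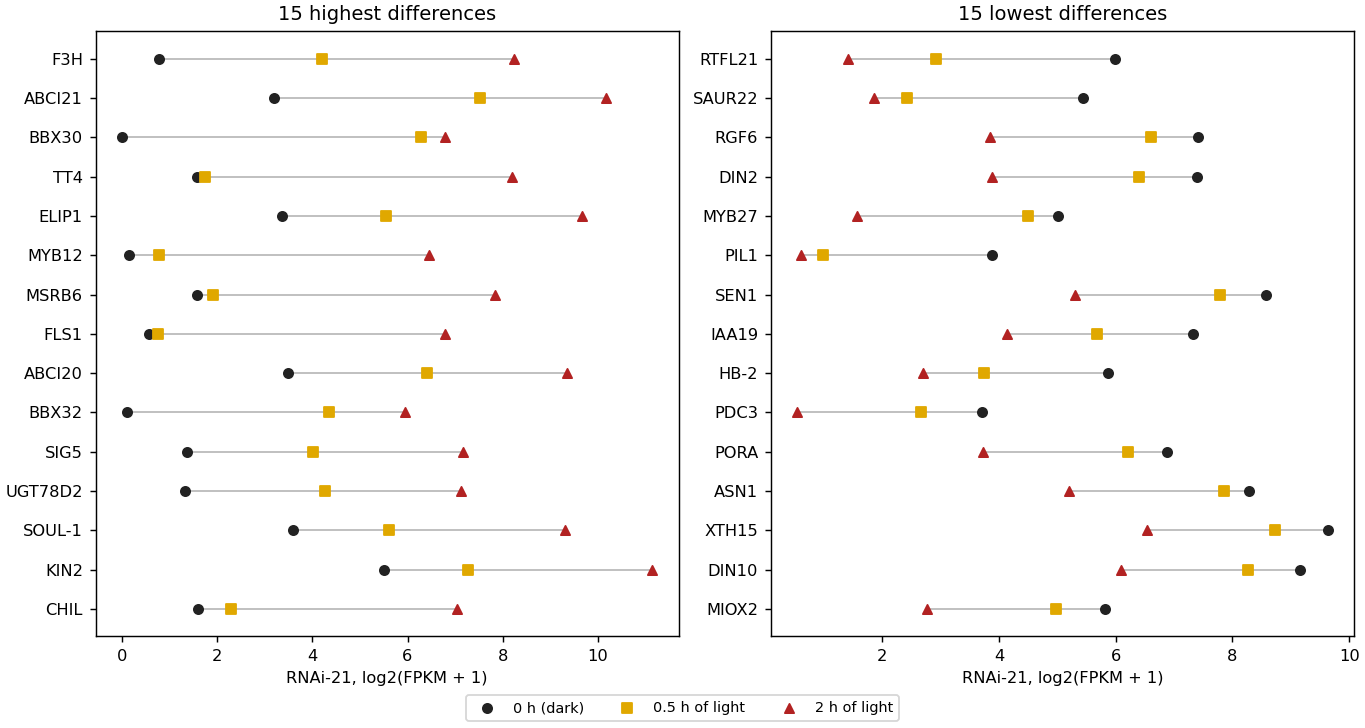
Genes with the 15 highest and the 15 lowest differences, chosen from those that carry a symbol and reach an FPKM of 5, with the level in RNAi-21 on the horizontal axis in log2(FPKM + 1) at 0 h (circle), 0.5 h (square) and 2 h (triangle), 1 library each. TT4, FLS1 and MSRB6 lie near their dark level at 0.5 h, whereas BBX30, BBX32 and, among the lower genes, PIL1 and SAUR22 lie nearer their 2 h level.

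Genes for chlorophyll synthesis fell into opposite groups. PORA (AT5G54190), the protochlorophyllide oxidoreductase of etiolated tissue, went from an FPKM of 117 through 73.2 to 12.2, a difference of -3.16. PORB (AT4G27440), its close relative that persists in green tissue, went from 174 through 106 to 40.7. The third reductase, PORC (AT1G03630), named after its values were seen, was higher at 2.16, 2.49 and 9.65, a difference of 1.75, so the genes for this step differed in direction. GUN5 (AT5G13630), the H subunit of magnesium chelatase, was at 20.3, 34.7 and 111, and its activator GUN4 (AT3G59400) at 12.3, 15.3 and 84.6. CH1 (AT1G44446), the oxygenase that makes chlorophyll b, was at 12.4, 29.95 and 46.9. On the haem branch FC1 (AT5G26030), a ferrochelatase, was at 26.3, 38.9 and 107. In the list as a whole 9 of 28 were at least 2-fold higher, 2 lower, and the median was 0.50.

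Light-harvesting antenna genes had their lowest levels at 0.5 h in several cases. CAB2 (AT1G29920), an LHCB1 protein of the photosystem II antenna, was at 97.0, 36.6 and 677. LHCB2.2 (AT2G05070) was at 55.0, 44.3 and 653, and LHCB2.1 (AT2G05100) at 58.9, 69.8 and 596. Summed over the 20 antenna genes the FPKM was 8449 in the dark, 5304 after 0.5 h and 13782 after 2 h, so the early library was lower and the later one higher than the dark library. LHCA1 (AT3G54890) of the photosystem I antenna followed with 59.1, 50.2 and 359. CAB1 (AT1G29930), another LHCB1 gene and the most abundant of those named, differed from this at 4006, 2096 and 2974. The LHCB1 copies are nearly identical, and how reads were divided among them is not known. In this list 11 of 20 were at least 2-fold higher, none was lower and the median was 1.15, or 0.99 with totals equalised.

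All 26 photosystem and electron transport genes compared were above 0, and 19 (73.1%) were at least 2-fold higher, with a median of 1.31. The ferredoxins FD1 (AT1G10960) and FD2 (AT1G60950), soluble electron carriers, were at 89.3, 230.1 and 926 and at 145, 181 and 748. PSAH2 (AT1G52230) of photosystem I had 54.6, 44.7 and 326, and PSBO2 (AT3G50820) of the oxygen-evolving complex had 34.3, 32.7 and 149. These subunits were below their dark level at 0.5 h, in contrast to FD1. ATPD (AT4G09650), a subunit of the plastid ATP synthase, had 32.4, 37.1 and 187.

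In carbon fixation 6 of 16 genes were at least 2-fold higher and none lower, at a median of 0.81. RBCS1B (AT5G38430), a small subunit of Rubisco from a group of near-identical genes, had an FPKM of 7.02, 8.15 and 148. The more abundant RBCS1A (AT1G67090), RBCS2B (AT5G38420) and RBCS3B (AT5G38410), named after their values were seen, stayed within 2-fold. Their differences were 0.39, 0.10 and 0.98, and RBCS1A had 1765, 1463 and 2312. Rubisco activase, RCA (AT2G39730), had 109.5, 97.8 and 589, and the aldolase FBA1 (AT2G21330) had 19.2, 15.1 and 114. Like the antenna genes, these were near or below their dark level at 0.5 h. Photorespiration, which recovers the carbon lost when Rubisco fixes oxygen, had 6 of 9 genes at least 2-fold higher. Its glycine decarboxylase GLDP1 (AT4G33010) went from 16.9 through 22.0 to 163.

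Photoprotection genes had a median of 2.52, and 8 of 11 were at least 2-fold higher. ELIP1 (AT3G22840), an early light-induced protein of the thylakoid, was at an FPKM of 9.23, 45.8 and 817, and ELIP2 (AT4G14690) at 16.4, 34.4 and 633. NPQ4 (AT1G44575), the PsbS protein needed to dissipate excess light, was at 58.6, 96.1 and 524, and OHP2 (AT1G34000), a one-helix protein, at 23.48, 35.7 and 168. PGR5 (AT2G05620), of cyclic electron flow, was at 18.1, 28.1 and 108. Each of these was highest at 2 h. For carotenoids 4 of 13 were higher by 2-fold or more, including the entry enzyme PSY (AT5G17230) at 12.9, 23.3 and 79.8 and the zeaxanthin epoxidase ABA1 (AT5G67030) at 18.01, 31.2 and 77.6.

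Among factors of plastid transcription the sigma factor SIG5 (AT5G24120), which directs the plastid polymerase to blue-light responsive genes, stood far from the others. Its FPKM was 1.56, 15.1 and 142, a difference of 5.80, whereas SIG1 (AT1G64860) next to it had 9.47, 10.8 and 29.8. The list had 4 of 20 at least 2-fold higher and a median of 0.39, which was 0.58 with a filter of 5 FPKM and 0.25 with totals equalised. PTAC7 (AT5G24314), a protein of the plastid transcription complex, was just past the threshold with 27.3, 30.7 and 55.8, and with 32.2, 33.9 and 37.4 in WT. Plastid protein import was near the median of all genes, with a median of 0.07 that became -0.09 with totals equalised. Of its 17 genes 2 (11.8%) were higher, near the 9.08% over all genes compared.

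All 14 plastid-encoded and all 18 mitochondrion-encoded loci compared were above 0 between 0 h and 2 h in RNAi-21. The plastid loci had summed FPKM of 69.1, 86.9 and 166 at 0, 0.5 and 2 h, a median difference of 0.93, and 5 of them were at least 2-fold higher. The mitochondrial loci had 942, 1036 and 1582, a median of 0.56, and 1 was at least 2-fold higher. In WT the sums ran 231, 174 and 222 for the plastid and 1871, 1546 and 1723 for the mitochondrion, and 5 of 14 and 6 of 18 loci were above 0. The dark RNAi-21 library was thus the lowest of the 6 for both organelles, and organelle loci made up 0.128% of its summed FPKM against 0.255% in dark WT. Under equalised totals 30 of the 32 loci were still above 0 in RNAi-21. How RNA without a poly(A) tail was captured in each library is not given in the sources used here, and its part in this pattern was not tested.

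**Figure D3:**
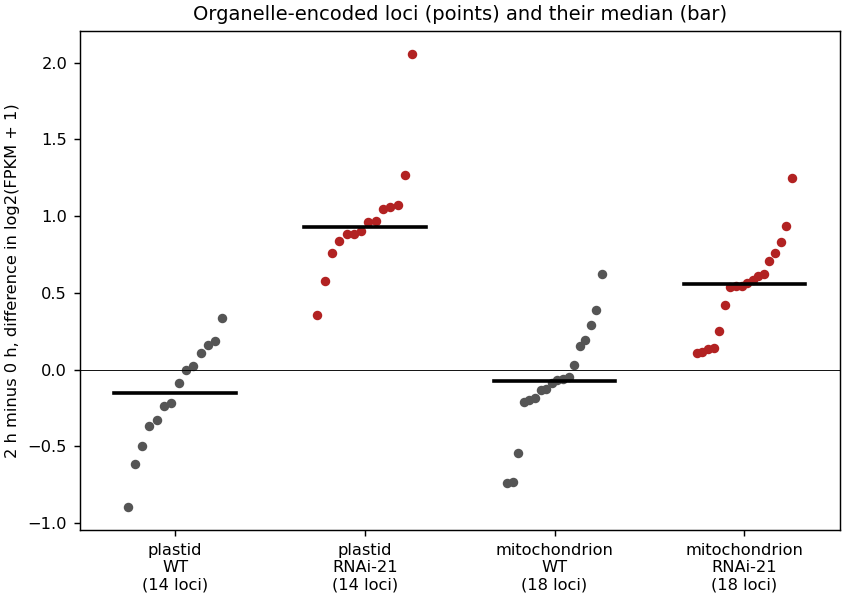
Each point is an organelle-encoded locus, with its difference between 2 h and 0 h on the vertical axis in log2(FPKM + 1), by organelle and genotype, and the bar is the median. All 14 plastid and 18 mitochondrial loci lie above 0 in RNAi-21 as deposited, 30 of these 32 do with totals equalised, and in WT 5 of 14 and 6 of 18 lie above 0.

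Growth genes had many of the lowest differences. SAUR genes, named for small auxin up RNAs, encode small proteins that promote acid growth of cell walls. Of these genes 17 of 20 (85.0%) were at least 2-fold lower, with a median of -2.19. SAUR22 (AT5G18050) had an FPKM of 42.5, 4.33 and 2.64, and SAUR19 (AT5G18010) had 63.5, 7.94 and 6.81. Over the list the summed FPKM was 662, 161 and 197, so the lower level was present at 0.5 h. SAUR19 to SAUR24 are near-identical neighbours, and how reads were shared among them is uncertain. SAUR14 (AT4G38840), named after its values were seen, was the lone higher member at 20.8, 15.4 and 58.6, a difference of 1.45.

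The auxin response list held 10 of 27 genes at least 2-fold lower and 3 higher, at a median of -0.63. IAA19 (AT3G15540), an auxin-induced repressor active in hypocotyl growth, was at 159, 50.2 and 16.6, and IAA29 (AT4G32280) at 14.8, 1.66 and 1.30. GH3.3 (AT2G23170), an enzyme that conjugates auxin to amino acids, had 15.03, 7.36 and 1.04. DFL1 (AT5G54510), a GH3 enzyme of the same kind, went the other way at 29.9, 32.4 and 159. Members of 1 enzyme family thus differed in direction.

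Cell wall enzymes were divided too, with 10 of 24 lower and 4 higher at a median of -0.47. XTH15 (AT4G14130), a xyloglucan endotransglucosylase, had an FPKM of 791, 422 and 91.8, and XTH30 (AT1G32170) had 495, 227 and 120. EXPA11 (AT1G20190), an expansin, had 162, 139 and 27.7, while EXPA10 (AT1G26770) had 7.77, 11.2 and 49.6. The decline was gradual for EXPA11, which kept most of its level at 0.5 h. Of the tubulins 3 of 15 were at least 2-fold lower, among them TUB1 (AT1G75780) at 76.8, 71.8 and 27.7, and 14 of 15 were below 0. Cellulose synthesis genes had a median of -0.04, which became 0.00942 with median-ratio scaling. The secondary-wall enzyme CESA4 (AT5G44030) had 253, 172 and 80.0, and all 13 xylem markers compared were below 0 at a median of -0.56.

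Hormone genes outside auxin showed opposite changes within the same pathway. GA2OX1 (AT1G78440), which inactivates gibberellin, was at an FPKM of 0.365, 6.004 and 21.8, and GA3OX2 (AT1G80340), which makes its active form, at 0.130, 0.349 and 11.4. GA20OX1 (AT4G25420), an earlier step of synthesis, was at 6.02, 0.496 and 1.33. Over these enzyme groups, 1 of 5 GA2OX genes compared was at least 2-fold higher, the GA3OX pair had 1 higher and 1 lower, and both GA20OX genes were lower. BAS1 (AT2G26710), which inactivates brassinosteroids, had 22.0, 11.0 and 3.63, and GAI (AT1G14920), a DELLA repressor, had 28.9, 11.4 and 7.80. The list had 3 of 28 higher (10.7%), 5 lower (17.9%) and a median of -0.28. Over all genes compared 9.08% were higher and 4.48% lower.

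For ethylene and the apical hook the median was -0.16, with 1 of 20 higher (5%) and 3 lower (15%), against 9.08% and 4.48% over all genes compared. ACS5 (AT5G65800), an enzyme of ethylene synthesis, went from 11.0 through 2.38 to 0.825. HLS1 (AT4G37580), an acetyltransferase-like protein needed to form the hook, went from 6.29 through 2.91 to 1.90. EIN3 (AT3G20770), the ethylene transcription factor, differed by less than 2-fold, at 138, 131 and 97.0.

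Genes known from carbon starvation in darkness were lower, with 12 of 23 (52.2%) at least 2-fold lower, none higher and a median of -1.01. DIN2 (AT3G60140), a beta-glucosidase, had an FPKM of 166, 83.1 and 13.7. SEN1 (AT4G35770), a dark-induced senescence-associated protein, had 379, 219.7 and 38.6, and ASN1 (AT3G47340), an asparagine synthetase, had 312, 231 and 35.6. Each was still well above its 2 h level at 0.5 h. DIN10 (AT5G20250), of the raffinose synthase family, had 569.9, 307 and 67.4. Branched-chain amino acid breakdown was represented by BCAT-2 (AT1G10070), an aminotransferase, at 113, 103 and 20.1. In WT the same list had a median of -0.60, and ASN1 was at 369.8, 423 and 75.3 there. Whether the genotypes differ in this list was not tested.

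Enzymes that mobilise stored lipid had a median of -0.22. Of 19 compared, 1 (5.26%) was at least 2-fold higher, against 9.08% over all genes compared. It was ACX1 (AT4G16760), an acyl-CoA oxidase, at 82.2, 86.8 and 175. PCK1 (AT4G37870), the carboxykinase that turns lipid carbon into sugar, was at 447, 434 and 243. Starch genes had a median of 0.03, which became -0.09 with totals equalised and 0.49 with a filter of 5 FPKM. Of 22 compared, 2 (9.09%) were at least 2-fold higher, near the 9.08% over all genes compared. They were the beta-amylases BAM1 (AT3G23920) at 34.0, 69.2 and 126 and BAM9 (AT5G18670) at 27.9, 65.1 and 67.7. Nitrogen genes split, with 5 of 21 higher and 4 lower. AMT1;2 (AT1G64780), an ammonium transporter, was at 9.74, 14.8 and 48.3, and GLU1 (AT5G04140), the ferredoxin-dependent glutamate synthase of leaves, at 12.9, 12.5 and 49.3. Those on the lower side included the nitrate transporter NRT1.1 (AT1G12110) at 361, 325 and 154.

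**Figure D4:**
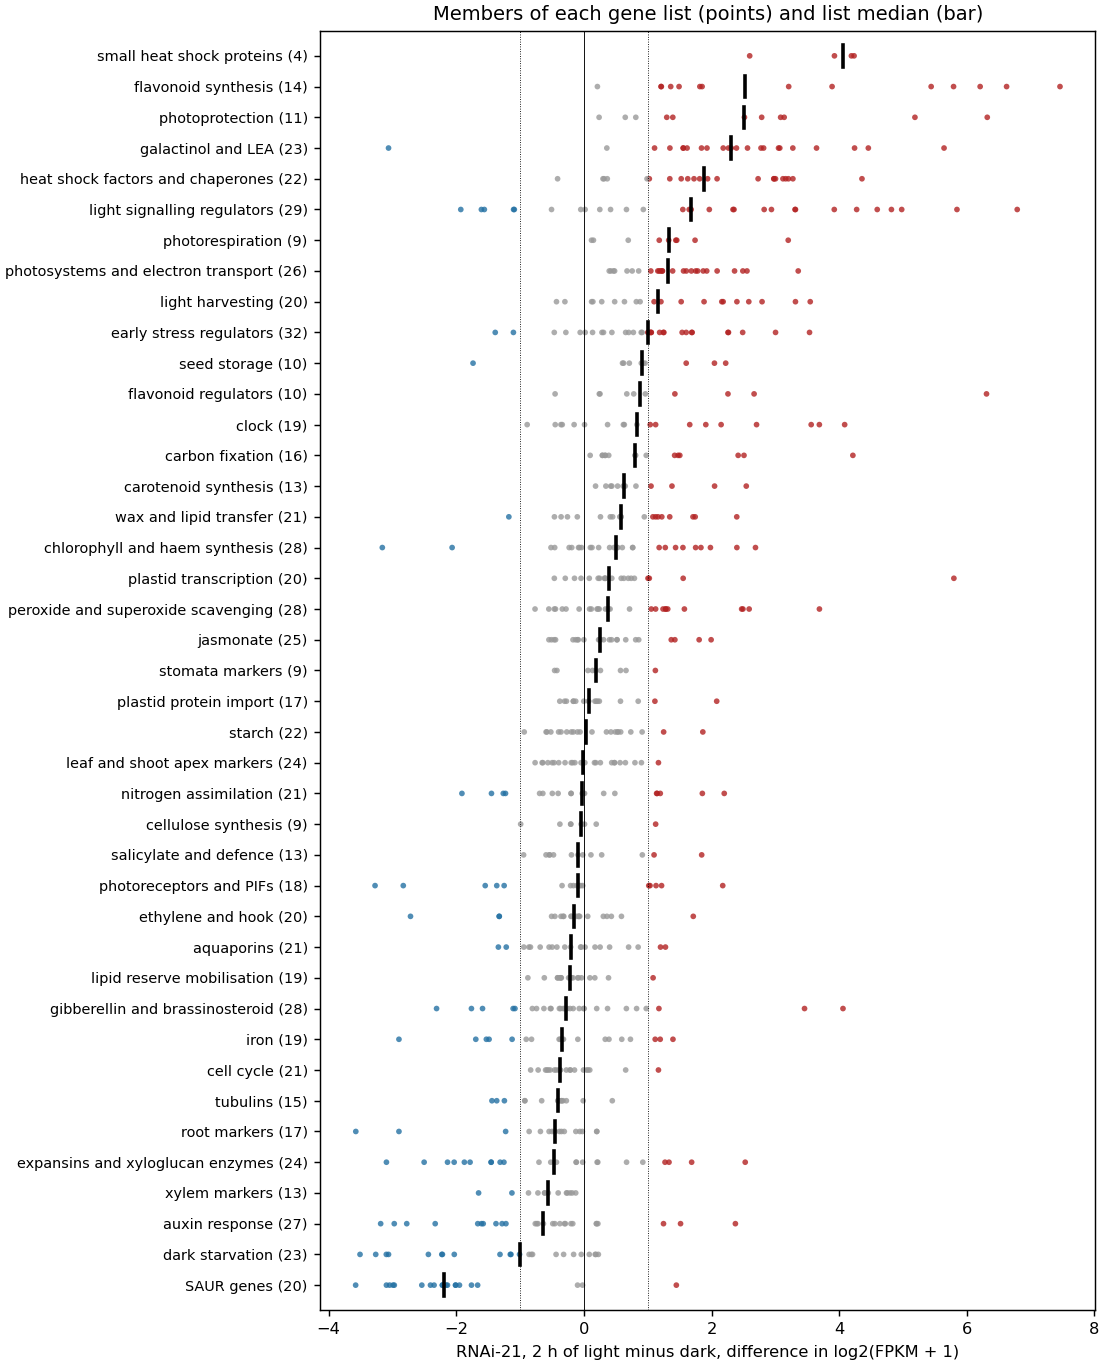
Each point is a list member compared in RNAi-21, with its difference between 2 h and 0 h on the horizontal axis in log2(FPKM + 1), the number of members in brackets and the list median as a bar, and dotted lines mark 2-fold. Medians run from 4.06 for small heat shock proteins to -2.19 for SAUR genes, and with other scalings the medians of plastid protein import, starch, cellulose synthesis, nitrogen assimilation and leaf and shoot apex markers change sign.

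Heat shock factors and chaperones, which fold or protect proteins under stress, had 17 of 22 (77.3%) at least 2-fold higher and a median of 1.88. HSP70 (AT3G12580) had an FPKM of 33.2, 242 and 701, and HSP90.1 (AT5G52640) had 8.14, 28.2 and 87.5. HSFA2 (AT2G26150), a heat shock factor, was at 0.988, 25.04 and 16.8, and the co-activator MBF1C (AT3G24500) at 25.01, 220.1 and 239. At 0.5 h HSFA2 was above and MBF1C close to its 2 h level, while the chaperones were highest at 2 h. All 4 small heat shock proteins compared were at least 2-fold higher, with 7.55, 18.5 and 155 for HSP17.6A (AT5G12030) and 0.734, 1.15 and 31.6 for the mitochondrial HSP23.6-MITO (AT4G25200). Of the 11 named for that list, 4 were listed.

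Early stress regulators had 17 of 32 higher, 2 lower and a median of 1.01, which was 0.88 with totals equalised. DREB2A (AT5G05410), a dehydration and heat response factor, was at 8.88, 139 and 114, and CBF3 (AT4G25480), a cold response factor, at 0.217, 24.7 and 4.85. Both had their highest value at 0.5 h. The zinc finger genes ZAT12 (AT5G59820) and ZAT6 (AT5G04340) continued upward, at 40.1, 117 and 328 and at 19.7, 66.7 and 115.

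Cold and drought protection genes stood out both in difference and in level. In the list of galactinol, raffinose and late embryogenesis abundant proteins 21 of 23 (91.3%) were at least 2-fold higher, 1 was lower and the median was 2.31. KIN2 (AT5G15970), a small cold-inducible protein, was at an FPKM of 44.4, 153 and 2267, and its neighbour KIN1 (AT5G15960) at 4.14, 8.498 and 112. These copies are nearly identical, so their separate values are uncertain. COR413-PM1 (AT2G15970), a cold-acclimation membrane protein, was at 302, 689 and 3792, and the dehydrin COR47 (AT1G20440) at 1217, 1230.4 and 3581. RD29A (AT5G52310), a drought and cold marker, was at 9.73, 45.4 and 202. The lower member was DIN10, which the starvation list also holds. The summed FPKM of the list was 5901, 6225 and 17186, and most of the gain came after 0.5 h.

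Enzymes against peroxide and superoxide had 11 of 28 at least 2-fold higher, none lower and a median of 0.38, or 0.22 with totals equalised. VTC2 (AT4G26850), which commits carbon to ascorbate, was at 26.2, 75.7 and 351. The glutathione peroxidase GPX6 (AT4G11600) was at 125, 162 and 759, and glutathione reductase GR1 (AT3G24170) at 64.1, 78.5 and 360.3. MSRB6 (AT4G04840), a methionine sulfoxide reductase, had 1.99, 2.74 and 227. Glutathione transferases were among the largest gains in level, GSTU19 (AT1G78380) at 904, 978 and 3064 and GSTF8 (AT2G47730) at 309.9, 418 and 1563.

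Defence hormones differed less. Jasmonate genes had 4 of 25 higher (16%) and a median of 0.26, with JAZ1 (AT1G19180), a repressor that jasmonate induces, at 19.8, 39.8 and 71.6. Salicylate and defence genes had 2 of 13 higher (15.4%) and a median of -0.09, with PAD4 (AT3G52430), a lipase-like defence protein, at 4.64, 6.48 and 19.3. The share of higher genes among all genes compared was 9.08%. Wax and lipid transfer genes had 8 of 21 higher, among them CER1 (AT1G02205) of alkane synthesis at 56.8, 73.1 and 188 and KCS2 (AT1G04220), a fatty acid elongation enzyme, at 22.3, 28.2 and 122.

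Of the iron list 3 of 19 were higher and 5 lower, with a median of -0.34 that became 0.00706 with a filter of 5 FPKM. IRT1 (AT4G19690), the root iron transporter, had an FPKM of 51.7, 46.0 and 6.06, and FRO2 (AT1G01580), its partner reductase, had 3.17, 2.88 and 0.290. The regulators BHLH38 (AT3G56970) and BHLH39 (AT3G56980) had 3.51, 2.16 and 0.611 and 22.2, 15.6 and 7.06. The ferritin FER3 (AT3G56090), which stores iron, had 16.4, 24.7 and 44.8, a difference of 1.40 against 0.63 in WT. IRT1 is also in the list of root markers, whose summed FPKM is given above.

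Genes with a symbol were also ranked by level rather than ratio. The 10 largest gains held aquaporins, a polyubiquitin, TCTP (AT3G16640) and the cold and glutathione transferase genes given above. They also held the antenna gene LHB1B2 (AT2G34420), at 1055, 886 and 2262. The 10 largest losses held 5 aquaporins. PIP1B (AT2G45960), a plasma membrane aquaporin, had the largest gain of the genes with a symbol, from an FPKM of 2912 through 3077 to 6694. TIP1;2 (AT3G26520), a tonoplast aquaporin, had their largest loss, from 12279.9 through 10206 to 9979. Another plasma membrane channel, PIP1C (AT1G01620), went from 4462 through 3315 to 2497, and the tonoplast TIP2;1 (AT3G16240) from 3016 through 2202 to 1297. Aquaporins as a list had 2 of 21 higher (9.52%), 2 lower (9.52%) and a median of -0.21, so the gains and losses were within 1 family. Over all genes compared 9.08% were higher and 4.48% lower. UBQ3 (AT5G03240), a polyubiquitin gene, had 5442, 5838 and 8446. FLA9 (AT1G03870), a fasciclin-like arabinogalactan protein, went from 1067 through 649.5 to 326.

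Cell cycle genes had 1 of 21 higher (4.76%), none lower and a median of -0.37, against 9.08% higher and 4.48% lower over all genes compared. The higher gene was KRP2 (AT3G50630), an inhibitor of cyclin-dependent kinases, at 14.7, 15.4 and 34.3. Of 9 stomata markers 1 (11.1%) was at least 2-fold higher, near the 9.08% over all genes compared. It was STOMAGEN (AT4G12970), a peptide that promotes stomata, at 7.72, 9.62 and 17.95. Seed storage genes had 3 of 10 higher, 1 lower and a median of 0.91, which was 1.57 with a pseudocount of 0.1 and 0.61 with no filter. The cruciferin CRA1 (AT5G44120) was at 2.89, 8.01 and 17.2 in RNAi-21, and at 0.295, 63.9 and 0.887 in WT. Its high WT value stood in the 0.5 h library, and the part of residual seed RNA in these values was not tested.

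Among the named genes without a list, ABCI21 (AT5G44110) and ABCI20 (AT5G02270), soluble proteins of the ABC transporter family, had an FPKM of 8.17, 182 and 1159 and of 10.2, 83.7 and 652. SOUL-1 (AT2G37970), a haem-binding family protein, had 11.1, 48.2 and 634. RTFL21 (AT1G67265), of the small ROTUNDIFOLIA-like proteins, had the lowest difference of the genes with a symbol, -4.57, at 62.2, 6.57 and 1.66. RGF6 (AT4G16515), a signalling peptide also counted as a root marker, had 169, 96.8 and 13.3. MYB27 (AT3G53200), a MYB factor, had 31.4, 21.6 and 1.95, and PDC3 (AT5G01330), a pyruvate decarboxylase, had 12.1, 5.33 and 0.457. MIOX2 (AT2G19800), an inositol oxygenase, had 55.3, 30.4 and 5.81. Among genes of any name, 3 of the 15 highest and 7 of the 15 lowest had no symbol.

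The WT comparison of 2 h with 0 h shares no library with that of RNAi-21, and it gave 1438 higher (8.01%) and 840 lower genes (4.68%) of 17962 compared. Of the RNAi-21 genes, 1209 were also at least 2-fold higher in WT, which is 74.1% of the RNAi-21 list and 84.1% of the WT list. On the lower side 561 were shared, 69.7% of the RNAi-21 list and 66.8% of the WT list. Of the 423 higher genes not past 2-fold in WT, 392 had the same sign there and 314 a WT difference of at least 0.5. Of the 244 lower ones 232 had the same sign. Genes higher in RNAi-21 had a median difference of 1.58 in RNAi-21 and 1.42 in WT. A smaller WT median is built in when genes are chosen on the RNAi-21 value, so it is no sign of a stronger response. At 2-fold in opposite directions stood 2 loci each way, none with a symbol.

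List medians were close between genotypes for most lists. Chaperones had 1.88 in RNAi-21 and 2.47 in WT, SAUR genes -2.19 and -2.98, and starch genes 0.03 and 0.57. Photoprotection had 2.52 and 1.72, and photosystem genes 1.31 and 0.92. At 0.5 h the chaperone HSP70 had an FPKM of 242 in RNAi-21 and 129 in WT, and CAB2 had 36.6 and 66.8. No difference between the genotypes was tested, because each response rests on 1 pair of libraries.

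**Figure D5:**
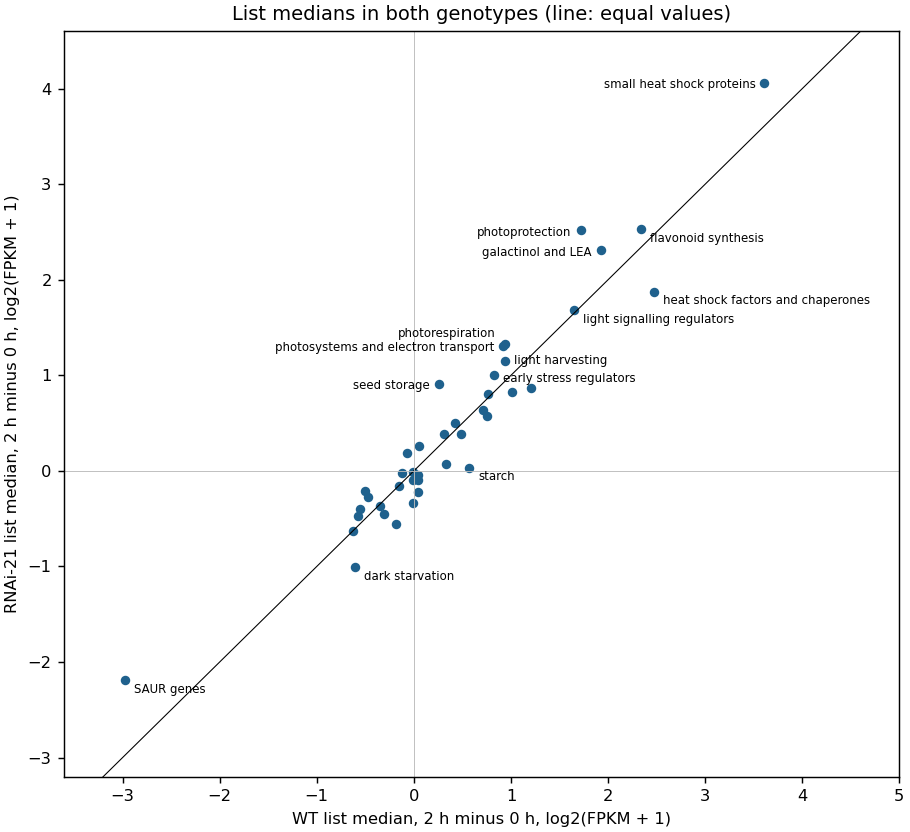
Each point is a gene list, with its median difference between 2 h and 0 h in WT on the horizontal axis and in RNAi-21 on the vertical axis, both in log2(FPKM + 1), and the line marks equal medians. Photoprotection lies above the line at 2.52 against 1.72, and heat shock factors and chaperones lie below it at 1.88 against 2.47, each genotype being 1 pair of libraries.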

How the data were processed

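Total RNA (TRIzol) was made into Illumina libraries, per the labels' protocols. HISAT and Bowtie2 are named per the submitters' processing notes, and for the quantifier, build and annotation the entry is not given in the sources used here. Values in the deposited tables were taken to be FPKM computed by the authors. No header names the unit, which was inferred from non-integer values with unequal sums, and TPM over part of the genes remains possible. Counts were not used, so depth is unknown and counting intervals were not computed. Of 19763 listed loci, 19532 matched the RefSeq TAIR10.1 table by identifier, used for names only.

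From these values log2(FPKM + 1) differences were computed between 1 RNAi-21 library and 1 other, for loci at 1 FPKM or more in either, without any test. A 0 may be a failed estimate, so such a gene is only called listed at 0. The code was tested on simulated data. The members and the 42 gene lists (912 names, 817 listed and 780 compared) were chosen with earlier results of these data known. Named genes were, among symbols that reach an FPKM of 5 in a compared library, the 15 highest and 15 lowest differences and the 10 largest gains and losses. At any level, up to 6 members of each list with the largest absolute differences were added. Symbol families of at least 8 members with the 5 highest and 5 lowest medians were also named. Alternatives were a pseudocount of 0.1, a filter of 5 or none, median-ratio scaling, equalised totals without organelle genes, and a 4-fold threshold. Settings for organelle loci were added after seeing the data. Python 3.11.15 with pandas 2.3.3, numpy 2.4.6 and matplotlib 3.10.9 was used.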

Additional observations from a re-analysis of the deposited data

Results flagged for a closer look

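The named genes, gene lists and organelle loci given here had a difference of 1 sign in RNAi-21 and the other sign in WT, and no difference between the genotypes was tested. TCTP (AT3G16640), the translationally controlled tumour protein, had a difference of 0.47 in RNAi-21 (FPKM of 6283, 5959 and 8675 at 0, 0.5 and 2 h) and -0.01 in WT (8592, 8814 and 8518). OLEO2 (AT5G40420), an oil body protein of seeds, had 0.93 in RNAi-21 and -0.35 in WT. CLV3 (AT2G27250), a peptide of the shoot apex at an FPKM under 2 in all 6 libraries, had -0.76 and 0.37. The cellulose synthases CESA6 (AT5G64740) and CESA3 (AT5G05170) had -0.21 and -0.20 in RNAi-21, where WT had 0.05 and 0.08. AIM1 (AT4G29010) and LACS6 (AT3G05970), of fatty acid breakdown, had -0.41 and -0.39 against 0.04 and 0.02. The import receptor TOC132 (AT2G16640) had -0.30 against 0.22.

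The median over plastid-encoded loci was 0.93 in RNAi-21 and -0.15 in WT, and over mitochondrion-encoded loci 0.56 and -0.08. The median of the cellulose synthesis list was -0.0439 in RNAi-21 and 0.05 in WT. For salicylate and defence genes the medians were -0.0924 and 0.04, and for lipid reserve mobilisation -0.22 and 0.04. Stomata markers had a median of 0.18 in RNAi-21 and -0.07 in WT. Each of these genes and medians lies within 2-fold.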

How the results depend on the processing

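With a pseudocount of 0.1, 1272 genes were lower and 60.9% of the calls higher, and the medians of flavonoid regulators and seed storage genes passed 2-fold at 1.59 and 1.57. With a filter of 5 those medians were 1.43 and 1.27, early stress regulators were at 0.91 and iron genes at 0.00706. With no filter early stress regulators were at 0.96, flavonoid synthesis at 1.85, flavonoid regulators at 0.78 and seed storage genes at 0.61. Median-ratio scaling gave 70.1% of calls higher and medians of 0.00942 for cellulose synthesis, 0.027 for nitrogen assimilation, 0.030 for leaf and shoot apex markers and -0.956 for dark starvation. Equalised totals gave 55.4% of calls higher and medians of 0.99 for light harvesting, 0.88 for early stress regulators, -0.0893 for plastid protein import and -0.0913 for starch. At 4-fold 511 genes were higher and 132 lower, 79.5% of calls higher. Apart from the scaling and the thresholds themselves, the causes were not tested. Of 265 named genes none changed sign with either scaling. The other pseudocount and the filters cannot change the sign of a difference, and a filter of 5 keeps 241 of these genes. With equalised totals 10 came past 2-fold and 9 no longer were, and with a pseudocount of 0.1 17 came past it. No paired analysis was possible because each group holds 1 library and no test was made. Without replicates or depth, the error of any value is unknown, and low FPKM are the least certain.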

Other observations

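Among 177 families of at least 8 compared genes that share a symbol, LHCB (median 2.02), HSP (1.92), SWEET (1.09), COR (0.97) and BBX (0.89) had the highest medians in RNAi-21. The lowest were SAUR (-2.01), RTFL (-1.02), ORP (-0.59), CRK (-0.56) and TPS (-0.52). The symbols CRK and TPS each cover unrelated kinds of gene. Of 9 SWEET sugar transporters 5 were at least 2-fold higher and none lower. SWEET2 (AT3G14770) had an FPKM of 13.3, 14.1 and 66.0 at 0, 0.5 and 2 h, and SWEET17 (AT4G15920) had 45.2, 50.3 and 110. The SWEET median was 0.17 in WT, where SWEET1 (AT1G21460), the middle gene in RNAi-21 at 4.04, 3.56 and 9.74, had 5.43, 5.42 and 6.23. The other higher genes were past 2-fold in WT too. SWEET2, SWEET4 (AT3G28007), SWEET13 (AT5G50800) and SWEET17 had differences of 1.97, 2.02, 1.95 and 1.17 there. In RNAi-21 theirs were 2.22, 2.05, 1.99 and 1.26, so the gap in medians rests on SWEET1. Of 16 RTFL genes, which encode small peptides that restrict cell proliferation, 8 were lower and 2 higher. RTFL16 (AT3G25717) was at 116, 51.1 and 19.0, and RTFL12 (AT4G13395) went the other way at 4.04, 7.42 and 12.5.

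Runs of 3 neighbouring loci that were all at least 2-fold different in 1 direction numbered 24, of which 19 were higher and 5 lower. The number to be had from 9.08% higher and 4.48% lower genes in random order was not computed, so no clustering is read from this count. Some runs held genes of unlike names, such as AGP41, WRKY30 and SIG5, and others held similar copies. The latter included CBF2, CBF3 and CBF1, the glucosyltransferases UGT84A1, UGT84A3 and UGT84A4, and SAUR63, SAUR64 and SAUR65. The copies within each of the latter runs resemble each other, and how reads were divided among them is not known. The members named in this paragraph and the SWEET and RTFL genes above were picked after their values were seen.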
